A study of Vitis labrusca x Vitis vinifera with 9 samples.

Results

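Transcript abundance was compared between grapevine buds that had been pruned and sprayed with hydrogen cyanamide (PHC) and buds that had been sprayed with hydrogen cyanamide alone (HC), a comparison that asks what pruning adds once the chemical has been applied. The members were the 3 PHC and the 3 HC arrays, 6 of the 9 arrays of the series, the other 3 being of pruned buds (P). Each array carried RNA of treated buds labeled with Cy5 against RNA of water-sprayed buds on unpruned canes labeled with Cy3, and 30128 grapevine probes were measured on each. All buds were dormant buds at the 8th node from the base of mature canes of 5-year-old Vitis labrusca x Vitis vinifera plants, taken in late August and sampled 24 h after treatment with 1% hydrogen cyanamide, pruning or both. The sample labels describe the canes of the HC buds as pruned, whereas the methods of the study describe them as sprayed without pruning. The difference is read here as an effect of adding pruning on the strength of those methods, and the labels alone do not give it. The buds of a sample were pooled, so differences between single buds could not be seen, and nothing in the labels says whether the 3 replicates came from separate vines.

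A dormant grapevine bud holds a compressed shoot whose meristem neither divides nor elongates until dormancy is released. Hydrogen cyanamide is sprayed in vineyards to make such buds break together; it inhibits catalase and disturbs mitochondrial respiration. Pruning removes the distal part of the cane and with it the apical buds that hold lower buds back. The study treats these summer buds as paradormant, that is, held back by signals made elsewhere in the plant, with auxin as its example. It ties abscisic acid to endodormancy, which is controlled within the bud. A build-up of that hormone in these irrigated summer vines is considered unlikely by the study. Renewed growth calls on ribosome production, the secretory pathway, DNA replication, mitosis and loosening of the cell wall.

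The value of each probe was the log2 ratio of treated over control signal within an array, and a difference is the mean ratio over the PHC arrays minus the mean over the HC arrays, so a difference of 1 is 2-fold. A dye effect of a probe was common to both treatments because the dyes were never swapped, and it cancels in this difference. A probe was called higher or lower in PHC at a Benjamini-Hochberg adjusted p under 0.05 over the 26395 probes tested and a change of at least 2-fold, from a limma fit. In pooled buds, more cells of a type and more RNA per cell cannot be told apart. Ratios correlated at 0.823 to 0.916 between PHC arrays and at 0.504 to 0.66 between HC arrays, so the HC mean is the less firmly measured of the pair. The median Cy5 signal was lowest on HC replicate 3, at 234, against 858 as the highest HC array. Lists of markers for secondary wall, phloem and floral organ identity had 0 named probes, so the makeup of the buds could not be checked with them.

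In PHC, 2256 probes were higher than in HC, 8.55% of those tested, and 1407 were lower, 5.33%, so that 13.9% were called in either direction. The 3 PHC ratios all lay above the 3 HC ratios for 20.9% of the probes and all below them for 19.7%. Of the probes that were higher, 1516 (67.2%, against 10.2% of all tested probes) lay within 2-fold of the water control after HC and more than 2-fold above it after PHC. A further 422 (18.7%, against 69.9% of all tested probes) lay within 2-fold of it in both treatments. After HC 223 (9.88%) were more than 2-fold below the control, against 5.24% of all tested probes. In both treatments 95 (4.21%) were more than 2-fold above it, against 3.44% of all tested probes. Within 2-fold of the control after HC were 85.9% of the higher probes and 89.0% of all tested. The median log2 ratio of the higher probes was -0.10 after HC, 1.49 after PHC and 0.62 after P. Of the probes that were lower in PHC, 763 (54.2%, against 9.02% of all tested probes) lay within 2-fold of the control after HC and more than 2-fold below it after PHC. Over all 1407 the median log2 ratio was 0.05 after HC, -1.25 after PHC and -0.37 after P. A smaller group of 275 (19.5%, against 5.72% of all tested probes) was more than 2-fold above the control after HC and lower in PHC, and 83 of these stayed more than 2-fold above the control in PHC. Another 277 of the lower probes (19.7%, against 69.9% of all tested probes) lay within 2-fold of the control in both treatments. The HC and PHC means are the terms of the difference that made the calls. The shares of called probes in these classes therefore follow in part from the call and are not separate results. The ratios after PHC and after P share a type of control with those after HC, so these medians are given side by side without a test. Of the calls, 61.6% were higher; with normexp background correction and median centring of each array the split was 3470 higher and 423 lower, 89.1% higher, and the median difference of all probes moved from -0.06 to 0.12. Scaling all arrays to one spread left 929 higher and 583 lower, and leaving out both arrays of replicate 3 left 1371 and 975.

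**Figure D1:**
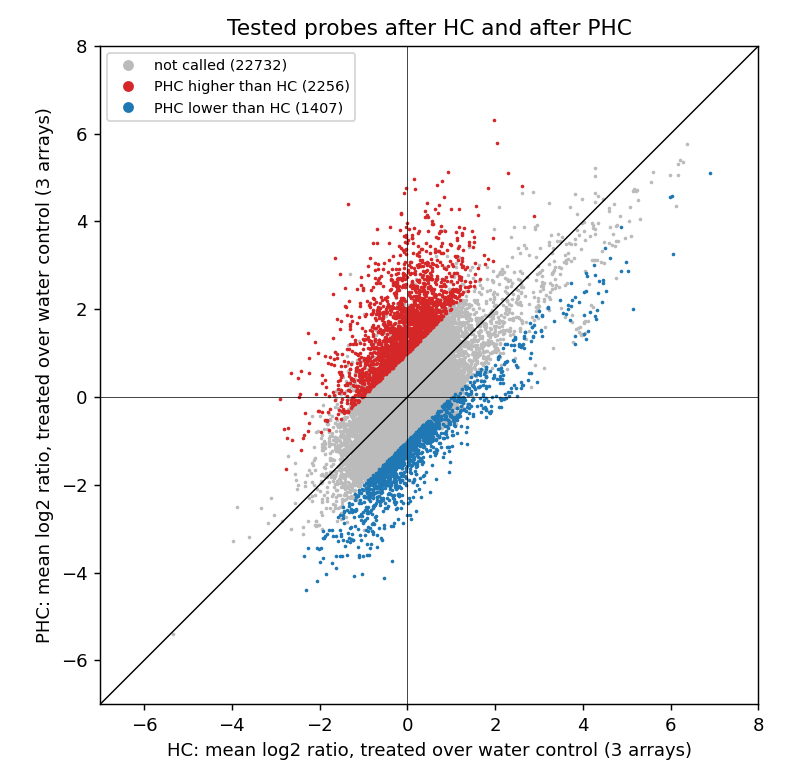
Mean log2 ratio of treated over water control after HC (x axis) and after PHC (y axis), 3 arrays each, for the 26395 tested probes, with the line of equal ratios. The 2256 probes called higher in PHC (red) lie above the line, as the call requires. Of these, 85.9% lay within 2-fold of the control after HC, against 89.0% of all tested probes. The 1407 called lower (blue) include an arm to the right that was high after HC.

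Among genes with an informative name, no overlap between the 3 PHC and 3 HC ratios and signals well above background, the 15 largest rises came from a range of gene families. The largest was a xyloglucan:xyloglucosyl transferase (GSVIVT00006913001), of the family that cuts and rejoins the xyloglucan tethers of the growing wall. Its log2 ratios were -2.63, -0.36 and -1.08 on the HC arrays and 5.31, 3.61 and 4.29 on the PHC arrays, a difference of 5.76 ± 0.65 (SE) with an adjusted p of 0.00123. The gene was below the control on every HC array and far above it on every PHC array, and its mean after P was 2.86. A gene similar to a proline-rich protein of the wall (GSVIVT00009622001) went from 1.04, 3.10 and 1.99 after HC to 4.96, 6.23 and 6.16 after PHC, a difference of 3.74 ± 0.84 (SE) (adjusted p = 0.0119). It was above the control on all 6 arrays. A glycosyl hydrolase of family 10 (GSVIVT00036099001), a family that includes xylanases, rose by 3.46, from 0.55 ± 0.89 to 4.01 ± 0.43 (SD, n = 3).

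A prephenate dehydrogenase family gene (GSVIVT00003278001), of the enzymes that make tyrosine, had log2 ratios of -1.59, -0.70 and -0.85 after HC and 2.73, 2.69 and 2.78 after PHC, and the difference was 3.78 ± 0.29 (SE) (adjusted p = 0.000662). It was below the control on every HC array and its PHC arrays lay close together. An O-methyltransferase of family 2 (GSVIVT00036191001), of the enzymes that methylate phenolics, gave 0.09, -0.32 and 0.64 after HC and 4.08, 2.44 and 4.04 after PHC and stayed at 0.01 after P. A cytidine/deoxycytidylate deaminase gene (GSVIVT00017944001), of the enzymes that recycle pyrimidines, rose by 3.51 and a gene of the MtN21 nodulin family (GSVIVT00031771001), which holds membrane transporters, by 3.54. A gene related to chloroplast nucleoid DNA-binding proteins (GSVIVT00030279001) rose by 3.65, a Ran-binding zinc finger gene (GSVIVT00034569001) by 3.46 and a tropomyosin-related gene (GSVIVT00000995001) by 3.32. A gene named for a mutant with defective embryos and meristems (GSVIVT00014814001) rose by 3.24, from -1.09 ± 1.06 to 2.15 ± 0.22 (SD, n = 3). Leucine-rich repeat genes GSVIVT00021264001 and GSVIVT00036820001 rose by 3.67 and 3.33. These differences kept their call when any single array was left out.

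**Figure D2:**
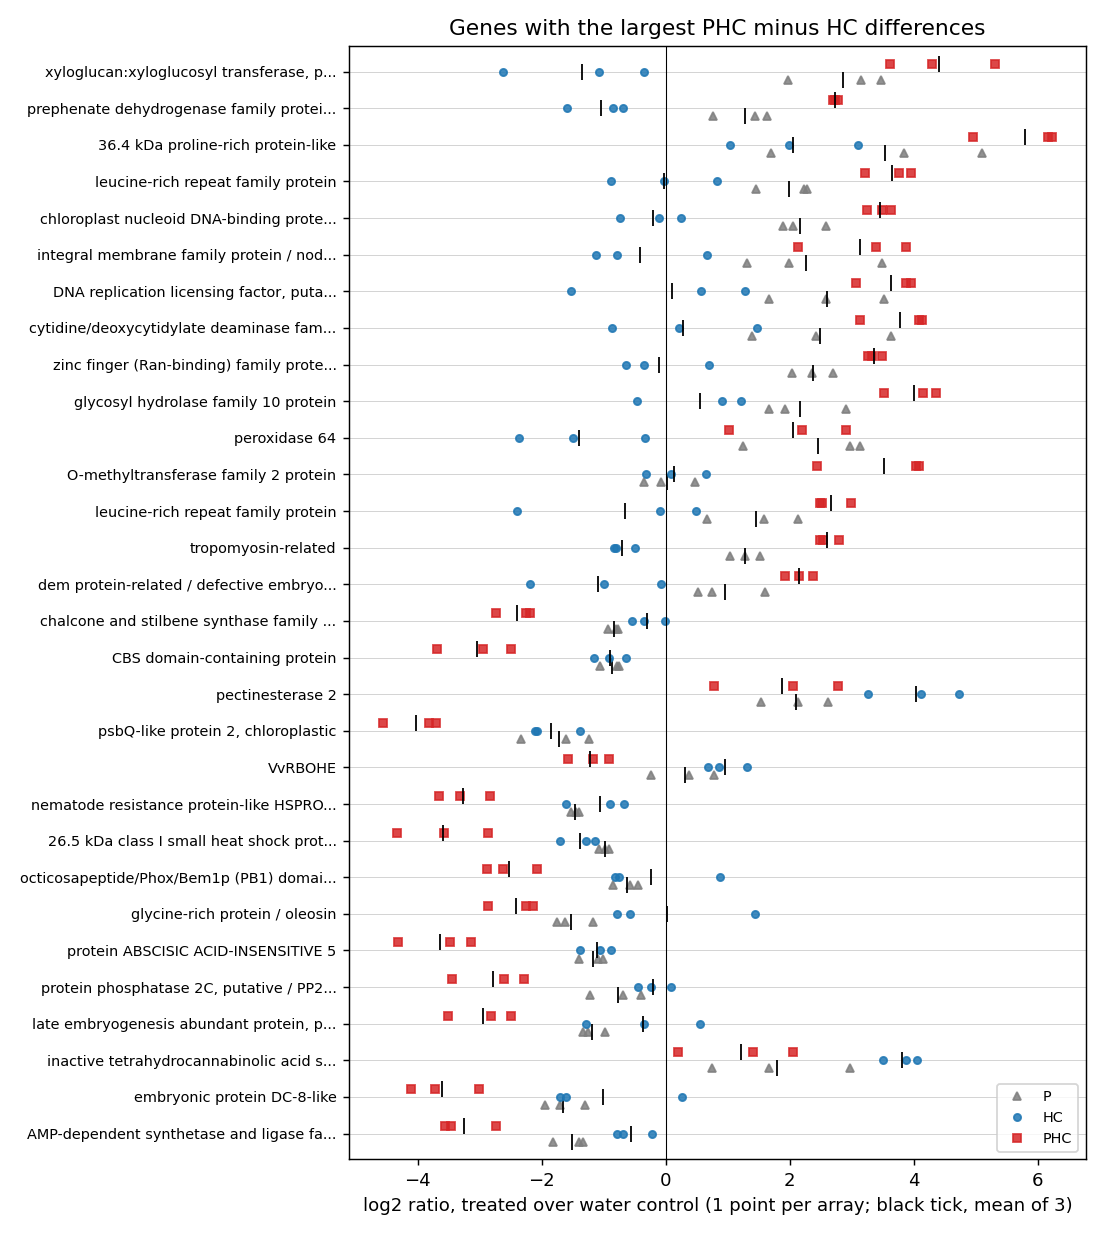
Log2 ratio of treated over water control on each array after P (grey triangles), HC (blue circles) and PHC (red squares) for the 15 largest rises and the 15 largest falls, with black ticks at the means of 3 arrays. The HC and PHC points of a gene do not overlap because the genes were chosen so. The P means of the rises lie between the HC and PHC means except for the O-methyltransferase and peroxidase 64.

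Part of the cytosolic ribosomal protein genes, whose products make up the ribosome, and most of the chaperones of the endoplasmic reticulum were higher in PHC. Of all tested probes 8.55% were called higher and 5.33% lower, shares that belong beside each list count below. Of 64 cytosolic ribosomal protein genes tested, 21 were called higher (32.8%) and 0 lower, and 62 had a positive difference, with a median difference of 0.84 against -0.06 over all tested probes. On single arrays the median log2 ratio of this list was 0.31, 0.34 and 0.49 after HC and 1.10, 1.13 and 1.39 after PHC. Those of the HC and PHC arrays did not overlap, and the 3 P arrays gave 0.17, 0.62 and 0.44. The 40S ribosomal protein S17 gene (GSVIVT00021536001) had the largest rise of the list, from 0.81, 1.25 and 1.31 to 3.64, 3.38 and 3.86, a difference of 2.50 ± 0.28 (SE) (adjusted p = 0.00123). The 60S acidic ribosomal protein P0 gene (GSVIVT00029254001) rose by 1.58, RPL21C (GSVIVT00025430001) by 1.42 and RPL23A (GSVIVT00020335001) by 1.38. Most of the 43 members not called also lay above 0. The count of called members was 2 with arrays scaled to one spread, 5 from the Cy5 signal alone and 53 with median centring, with median differences of 0.53, 0.66 and 1.31.

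Endoplasmic reticulum chaperones, which fold proteins entering the secretory pathway, were the fixed list with the largest share of calls, 5 of 6 members higher. Of the 6, 5 were named from tables that the study drew up from these arrays, and the count is not independent evidence of direction. A calnexin homolog (GSVIVT00011650001), a lectin-like chaperone, had ratios of 1.22, 1.38 and 1.24 after HC and 4.57, 3.35 and 3.64 after PHC, and the difference was 2.57 ± 0.40 (SE) (adjusted p = 0.00288). The HC arrays lay close together and every PHC array was far above them. A luminal-binding protein 5-like gene (GSVIVT00037232001), the BiP chaperone, rose by 2.07 from 1.28 ± 0.48, and a calreticulin gene (GSVIVT00022621001) by 1.57 from 1.18 ± 0.13 (SD, n = 3). Endoplasmin (GSVIVT00014401001), the Hsp90 of this compartment, rose by 1.73, a call lost without HC replicate 3 (1.54), PHC replicate 1 (1.39) or PHC replicate 3 (1.76). The exception was CNX1, which was below the control in both treatments, with a difference of -0.22 (adjusted p = 0.494). The 46 translation factor genes, a list chosen after values were seen, had 2 members higher and 1 lower and a median difference of 0.05. The fall was that of an initiation factor SUI1 gene (GSVIVT00027322001), which helps choose the start codon, from 1.50 ± 0.47 to 0.25 ± 0.20 (SD, n = 3).

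The medians of the DNA replication and the kinesin and microtubule lists lay below the control on the HC arrays and above it on the PHC arrays, and part of their members were called higher. Of 13 DNA replication genes 5 were higher (38.5%, against 8.55% of all tested probes) and 0 lower, with a median difference of 0.77. The list medians were -0.27, -0.07 and -0.49 on the HC arrays and 0.34, 0.21 and 0.40 on the PHC arrays. A DNA replication licensing factor (GSVIVT00003433001), of the MCM proteins that open origins, had ratios of 0.57, 1.28 and -1.54 after HC and 3.06, 3.87 and 3.95 after PHC. The difference was 3.52 ± 0.71 (SE) (adjusted p = 0.0077), and the HC arrays spread widely. Absence of overlap between HC and PHC arrays was a condition for naming list members. Another licensing factor (GSVIVT00035935001) rose by 2.25, from 0.23 ± 0.21 to 2.48 ± 0.72 (SD, n = 3). A replication protein gene (GSVIVT00003197001) was below the control after HC, at -1.51, and rose by 1.96, which did not pass without PHC replicate 3 (1.84, adjusted p = 0.0552). The other called members of this list were not well above background on enough arrays to be named. Of 5 histone genes only histone H4 (GSVIVT00018517001) was called, with a rise of 1.08 that was lost without PHC replicate 2 (0.96).

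Among 35 kinesin and microtubule genes, which build and move along the spindle and the cell plate, 11 were higher (31.4%, against 8.55% of all tested probes) and 0 lower, with a median difference of 0.66. A kinesin motor gene (GSVIVT00027214001) was strongly below the control after HC, with ratios of -1.37, -1.73 and -2.36, and above it or near it after PHC, with 1.52, 0.13 and 0.67. Its difference was 2.59 ± 0.39 (SE) (adjusted p = 0.00257). A kinesin-related gene (GSVIVT00000424001) rose by 2.37 and a further kinesin (GSVIVT00036821001) by 1.74, from -0.01 ± 0.36 to 1.73 ± 0.19 (SD, n = 3). With the list's median at -0.14, -0.13 and -0.37 on the HC arrays and 0.43, 0.15 and 0.37 on the PHC arrays, the arrays of the treatments did not overlap. The call count was 6 with normexp and loess and 7 without PHC replicate 1 or PHC replicate 3.

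Of 10 cell cycle genes 4 were higher (40%, against 8.55% of all tested probes) and 0 lower, with a median difference of 0.51. A WD-40 gene of the mitotic checkpoint (GSVIVT00001457001) was at -1.01, -0.63 and -1.22 after HC and 0.69, 0.80 and 1.01 after PHC, a difference of 1.78 ± 0.20 (SE) (adjusted p = 0.00115). MAD2 (GSVIVT00035100001), which delays anaphase until chromosomes are attached, rose by 1.19, APC10 (GSVIVT00024912001), a subunit of the anaphase-promoting ubiquitin ligase, by 1.08, and a cell division cycle gene (GSVIVT00027833001) by 1.05. The last 3 lie near the 2-fold limit, and each lost its call without some array: MAD2 without HC replicate 2 (0.93), HC replicate 3 (1.05), PHC replicate 1 (1.03) or PHC replicate 3 (1.21), APC10 without HC replicate 2 (0.94), and the cell division cycle gene without HC replicate 1 (0.96), HC replicate 3 (0.96) or PHC replicate 3 (0.90).

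**Figure D3:**
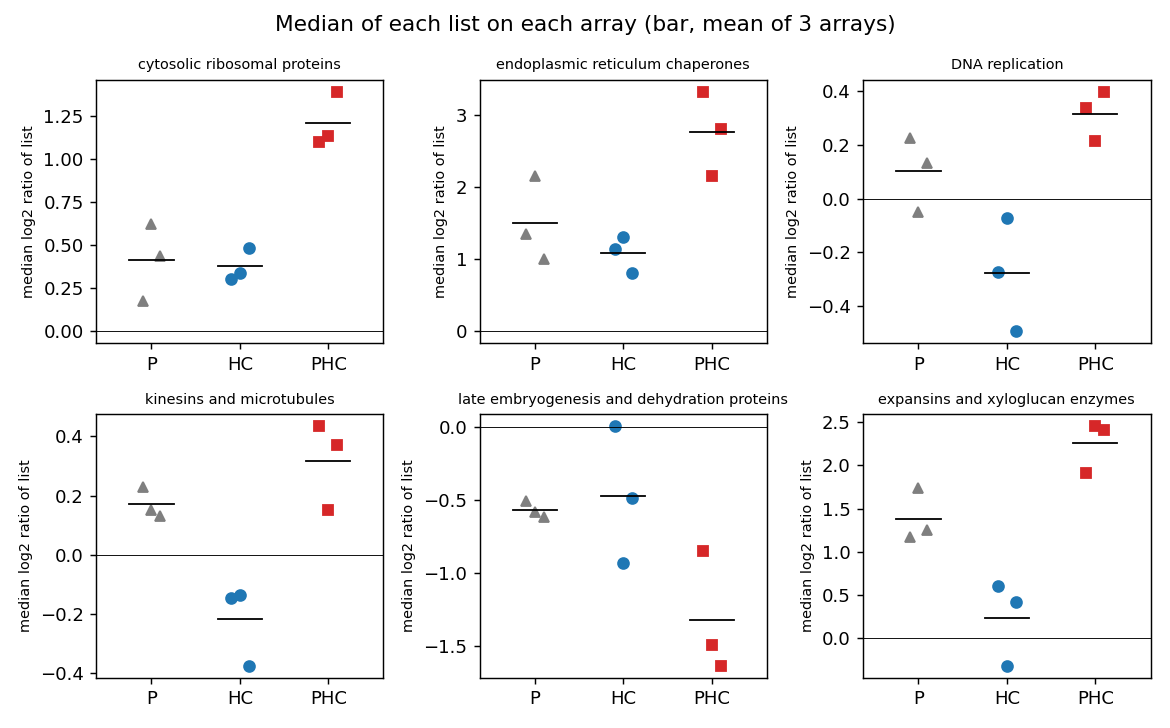
Median log2 ratio of treated over water control over the tested members of 6 gene lists, 1 point per array, with bars at the means of 3 arrays of P, HC and PHC. The HC and PHC points do not overlap for 5 lists, and for the late embryogenesis list HC replicate 2 (-0.93) lies below PHC replicate 1 (-0.85).

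Cell wall genes moved in both directions, with more rises than falls, as did all tested probes, of which 8.55% were higher and 5.33% lower. Of 9 expansin and xyloglucan genes 4 were higher (44.4%) and 0 lower, 4 of the 9 having been named from the study's own tables. Besides the leading transferase, a second xyloglucan transferase (GSVIVT00033487001) went from -0.82 ± 0.68 to 1.20 ± 0.38, a rise of 2.03, and expansin-A4 (GSVIVT00023946001), of the proteins that loosen walls in acid, from 1.01 ± 0.33 to 2.32 ± 0.19, a rise of 1.30 (SD, n = 3). Xyloglucan endotransglucosylase/hydrolase 32 (GSVIVT00000619001) rose by 1.10, which was lost without HC replicate 1 (0.95) or PHC replicate 2 (0.96). Of 48 pectin-modifying genes 11 were higher (22.9%) and 3 lower (6.25%), with a median difference of 0.31. A pectate lyase gene (GSVIVT00000608001), which cleaves pectin, had ratios of 0.28, 0.03 and -0.06 after HC and 2.44, 2.30 and 2.90 after PHC, a difference of 2.46 ± 0.23 (SE) (adjusted p = 0.000851). A pectinesterase (GSVIVT00033941001), which removes methyl groups from pectin, rose by 2.07. Another of the 11 (GSVIVT00002554001), up by 2.07, is described as a polygalacturonase by its Arabidopsis homolog and as a crocetin glucosyltransferase in the study's tables, so its place in the list is unsure.

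Pectinesterase 2 (GSVIVT00026388001) ran the other way within the same family. It stood at 4.11, 3.26 and 4.72 after HC and at 0.78, 2.78 and 2.05 after PHC, a difference of -2.16 ± 0.55 (SE) (adjusted p = 0.0192), and at 2.10 after P. The gene was above the control on all arrays, most so on the HC arrays, and the call was lost without HC replicate 3 (-1.81), PHC replicate 1 (-1.62) or PHC replicate 3 (-2.25). Of 52 extensin, proline-rich and arabinogalactan genes 11 were higher (21.2%, against 8.55% of all tested probes) and 1 lower (1.92%, against 5.33%), although the list's median difference was -0.05. A proline-rich gene (GSVIVT00006738001) rose by 2.03, a hydroxyproline-rich glycoprotein gene (GSVIVT00031887001) by 1.71, and a further proline-rich protein gene (GSVIVT00016962001) by 1.71. The calls in this list therefore came from a subset, and 24 of its 52 members had a positive difference.

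Class III peroxidases, secreted heme enzymes that can stiffen walls or produce reactive oxygen, had 7 members higher (16.7%) and 1 lower (2.38%) of 42. Of all tested probes 8.55% were higher and 5.33% lower. Of the 42, 33 were named from the study's own tables. Peroxidase 64 (GSVIVT00011734001) was below the control on every HC array, at -2.37, -0.34 and -1.50, and above it on every PHC array, at 1.02, 2.90 and 2.20, with a difference of 3.44 ± 0.69 (SE) (adjusted p = 0.00737). Its P arrays, at 1.25, 3.13 and 2.96, were as high as its PHC arrays. A peroxidase 31-like gene (GSVIVT00020806001) rose by 2.32 and a further member (GSVIVT00003644001) by 1.95, the latter from -1.88 ± 0.35 to 0.07 ± 0.23 (SD, n = 3). Cationic peroxidase 1-like (GSVIVT00023969001) was the member that fell, from 0.21, 0.20 and 0.08 to -1.70, -1.47 and -1.89, a difference of -1.85 ± 0.15 (SE) (adjusted p = 0.000679). Dirigent proteins guide the coupling of phenolic radicals into lignans, and the dirigent and lignin list of 15 split, with 3 higher (20%) and 4 lower (26.7%). A dirigent-related gene (GSVIVT00036083001) rose by 3.02, from 0.71 ± 0.07 to 3.73 ± 0.58, and dirigent protein 22 gene GSVIVT00028613001 by 2.11. Another dirigent protein 22 gene (GSVIVT00024744001) was very high after HC, with ratios of 7.48, 5.63 and 7.55, and lower after PHC, with 5.18, 5.24 and 4.89. Its difference of -1.78 (adjusted p = 0.0217) did not pass without HC replicate 1 (-1.49), HC replicate 3 (-1.45), PHC replicate 1 (-1.82) or PHC replicate 3 (-1.68). Close copies in these families may share a probe's signal.

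**Figure D4:**
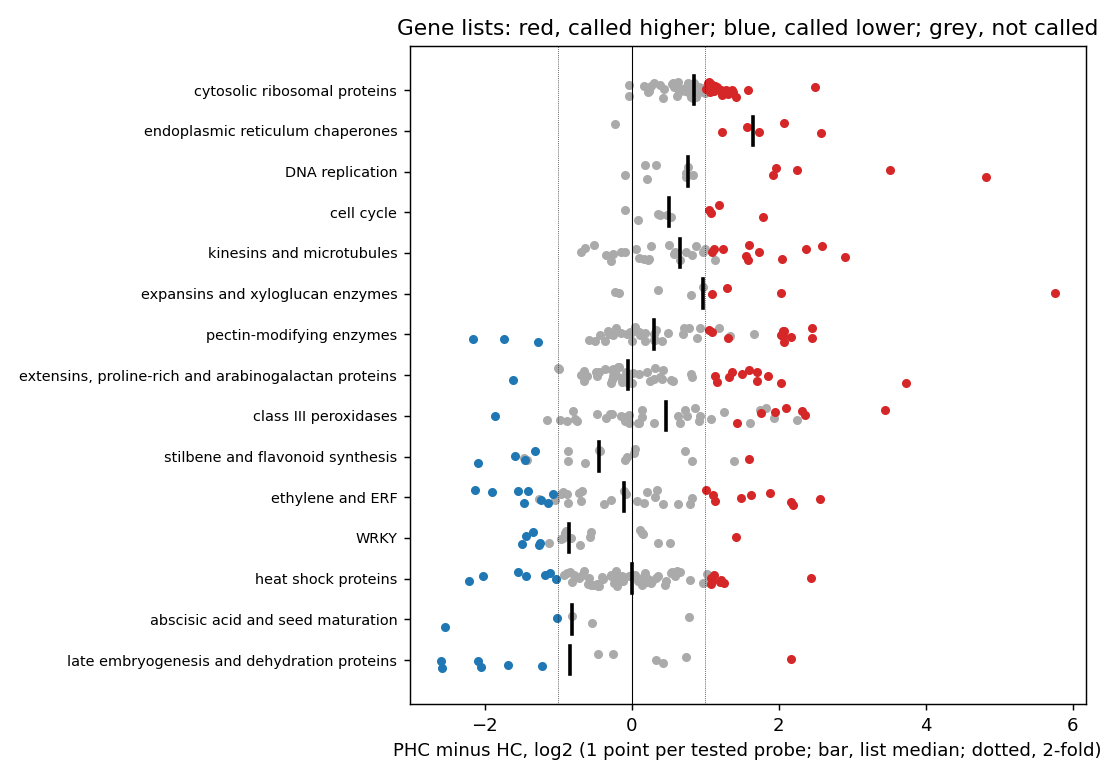
PHC minus HC difference (log2, x axis) of each tested member of 15 gene lists, with list medians as bars and dotted lines at 2-fold. Red members were called higher, blue lower and grey not called; ribosomal, replication, cell cycle, kinesin, chaperone and expansin lists hold 0 members called lower, and the 6 late embryogenesis members called lower lie between -2.60 and -1.22.

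Part of the late embryogenesis genes, and ABSCISIC ACID-INSENSITIVE 5 with another gene of a short abscisic acid list, were lower in PHC. Of 12 late embryogenesis and dehydration genes, whose hydrophilic proteins protect drying cells, 6 were lower (50%, against 5.33% of all tested probes) and 1 higher (8.33%, against 8.55%). The median difference was -0.84. Of the 6 that were lower, 3 were named from the study's tables. A gene similar to embryonic protein DC-8 (GSVIVT00021718001) had ratios of 0.26, -1.60 and -1.71 after HC and -3.02, -3.72 and -4.11 after PHC, a difference of -2.60 ± 0.51 (SE) (adjusted p = 0.00706). A late embryogenesis abundant gene (GSVIVT00034564001) went from 0.56, -1.29 and -0.36 to -2.49, -2.83 and -3.52, a difference of -2.58 ± 0.44 (SE) (adjusted p = 0.00385). In both genes a single HC array lay above the control, and every PHC array lay below the control. EMB-1-like (GSVIVT00029315001) was already low after HC, at -2.31 ± 0.62, and was lower still after PHC, at -4.39 ± 0.61 (SD, n = 3). The member that rose was a late embryogenesis abundant domain gene (GSVIVT00024917001), from -0.29, -0.42 and -0.61 to 1.83, 1.67 and 1.71, a difference of 2.18 ± 0.15 (SE) (adjusted p = 0.000622).

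ABSCISIC ACID-INSENSITIVE 5 (GSVIVT00021625001), a bZIP factor that carries the hormone's signal in Arabidopsis seeds, had ratios of -0.89, -1.06 and -1.39 after HC and -3.48, -3.15 and -4.31 after PHC. Its difference was -2.53 ± 0.29 (SE) (adjusted p = 0.00127), and its mean after P was -1.17. Of the 5 genes of the abscisic acid and seed maturation list 2 were lower and 0 higher; the second was an ABA-responsive GRAM domain gene (GSVIVT00013392001) with a difference of -1.01, lost without HC replicate 1 (-0.997), HC replicate 3 (-0.76), PHC replicate 2 (-1.02), PHC replicate 3 (-0.80) or P replicate 3 (-1.01). The next genes are in no list fixed for this hormone; they are named for the size of their fall or as members of other lists, and do not stand for a group. Among protein phosphatase 2C genes, a family that includes the repressors of abscisic acid signalling, GSVIVT00024235001 went from 0.09, -0.45 and -0.24 to -2.29, -2.61 and -3.45, a difference of -2.58 ± 0.33 (SE) (adjusted p = 0.00156). That family as a whole did not move together, with 3 of 31 lower, among them GSVIVT00009551001 at -1.25, 2 higher and a median difference of -0.09. XERICO (GSVIVT00029063001), a RING ubiquitin ligase that raises abscisic acid in Arabidopsis, went from -1.25 ± 0.25 to -3.13 ± 0.12, and an oleosin-type glycine-rich gene (GSVIVT00032135001), a coat protein of oil bodies, from 0.02 ± 1.23 to -2.42 ± 0.39 (SD, n = 3). A dormancy/auxin associated gene (GSVIVT00022672001) stood at -1.28, -1.09 and -1.42 after HC and -2.38, -2.37 and -3.04 after PHC, a difference of -1.33 ± 0.21 (SE) (adjusted p = 0.00271). It was below the control on all 6 arrays and lowest on the PHC arrays. Whether the level of abscisic acid in the buds differed between the treatments was not tested.

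Transcription factors that fell included a pair of NAC genes out of 6, GSVIVT00036931001 from -1.30 ± 0.32 to -2.98 ± 0.07 and NAC domain-containing protein 18 (GSVIVT00031526001) from -1.53 ± 0.62 to -3.04 ± 0.09 (SD, n = 3). Of the 6 NAC genes 5 were named from the study's tables, among them those that fell. REVEILLE 1 (GSVIVT00023467001), a MYB-like factor tied to the circadian clock in Arabidopsis, had ratios of -1.75, -1.45 and -1.56 after HC and -3.13, -3.01 and -3.68 after PHC, a difference of -1.69 ± 0.20 (SE) (adjusted p = 0.00132). The 23 MYB genes had 3 members lower (13.0%) and 2 higher (8.70%), against 5.33% and 8.55% of all tested probes. Among them were GSVIVT00037318001 at -1.25, GSVIVT00037734001 at -1.18 and GSVIVT00023066001 at 1.31. The remaining large falls were those of an AMP-dependent synthetase gene (GSVIVT00009148001), of the enzymes that activate acyl groups, by -2.68, HSPRO2-like (GSVIVT00029253001) by -2.21, a PB1 domain gene (GSVIVT00015993001) by -2.30, a CBS domain gene (GSVIVT00000316001) by -2.15 and the chloroplast psbQ-like protein 2 gene (GSVIVT00027434001) by -2.17. For the AMP-dependent synthetase the arrays read -0.69, -0.23 and -0.78 after HC and -3.47, -2.73 and -3.56 after PHC. The NAC list's median difference of -0.35 and the MYB list's of -0.24 became 0.06 and 0.17 with median centring, which moved the median of all tested probes from -0.06 to 0.12.

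Some of the genes called lower were high after HC and less so after PHC. A high HC ratio itself favors such a call, so they are given as single genes. Stilbene synthases make resveratrol, a grapevine defence phenolic, and stilbene synthase 1-like (GSVIVT00009218001) had ratios of 3.78, 3.70 and 3.53 after HC and 1.80, 1.95 and 2.52 after PHC. The difference was -1.58 ± 0.20 (SE) (adjusted p = 0.00159), and all 6 arrays were above the control. Stilbene synthase 4-like (GSVIVT00007353001) went from 4.62 ± 0.25 to 3.17 ± 0.78 (SD, n = 3), a call lost without PHC replicate 1 (-1.16) or PHC replicate 2 (-1.30). A chalcone and stilbene synthase family gene (GSVIVT00036027001) fell from near the control, -0.30 ± 0.27, to -2.39 ± 0.30. Of the 19 stilbene and flavonoid genes 4 were lower (21.1%, against 5.33% of all tested probes) and 1 higher (5.26%, against 8.55%). The rise was that of a chalcone-flavanone isomerase (GSVIVT00029440001), by 1.59, and 13 of the 19 were named from the study's tables. The list's median difference was -0.44, yet its median ratios overlapped, at 1.80, 1.50 and 0.66 on the HC arrays and 1.50, 1.83 and 1.91 on the PHC arrays. The falls therefore came from part of the list. A gene similar to tetrahydrocannabinolic acid synthase but called inactive (GSVIVT00018778001), of the berberine bridge enzyme family, had ratios of 4.04, 3.50 and 3.88 after HC and 0.19, 1.40 and 2.04 after PHC, a difference of -2.60 ± 0.59 (SE) (adjusted p = 0.0128).

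WRKY factors, many of which act in defence, had 5 members lower (25%, against 5.33% of all tested probes) and 1 higher (5%, against 8.55%) of 20. Of the 20, 19 were named from the study's tables. The list's median difference was -0.85, yet its median ratios overlapped. They were 0.20, 0.39 and 0.24 on the HC arrays and 0.33, 0.27 and 0.12 on the PHC arrays. WRKY40-like (GSVIVT00037648001) stood at 2.61, 2.18 and 3.14 after HC and 1.03, 1.20 and 1.41 after PHC, a difference of -1.43 ± 0.26 (SE) (adjusted p = 0.00487), and at 0.23 after P. A WRKY75 gene (GSVIVT00037881001) fell by -1.49 from 2.86 ± 0.14, which did not pass without HC replicate 3 (-1.42), PHC replicate 1 (-0.99) or PHC replicate 3 (-1.56), and WRKY70 (GSVIVT00037501001) went from -0.61 ± 0.26 to -1.95 ± 0.64 (SD, n = 3). WRKY46 (GSVIVT00027001001) rose by 1.42. The ethylene response factor 1B gene GSVIVT00020221001, an activator of defence genes in Arabidopsis, had ratios of 2.72, 2.25 and 3.40 after HC and 0.50, 1.06 and 1.11 after PHC, a difference of -1.90 ± 0.29 (SE) (adjusted p = 0.0026). Cell wall apoplastic invertase (GSVIVT00034185001), which splits sucrose outside the cell, went from 2.58, 2.99 and 3.17 to 0.81, 1.43 and 2.23, a difference of -1.42 ± 0.34 (SE) (adjusted p = 0.0145). Each of these genes was named under the condition of no overlap between HC and PHC arrays. A lipoxygenase (GSVIVT00035067001), of jasmonate synthesis, was 1 of 2 jasmonate genes and fell by -1.06, lost without HC replicate 1 (-0.80) or PHC replicate 3 (-0.97). Without HC replicate 2 the number of WRKY genes called lower was 8, and with median centring it was 2.

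Heat shock proteins, which hold unfolded proteins, did not move as a family, with 8 of 81 higher (9.88%), 7 lower (8.64%) and a median difference of 0.01. Of all tested probes 8.55% were higher and 5.33% lower. A DnaJ domain gene (GSVIVT00031892001) was above the control after HC, at 1.42, 1.54 and 1.09, and below it after PHC, at -0.86, -0.50 and -0.67, a difference of -2.02 ± 0.21 (SE) (adjusted p = 0.00099). A class I small heat shock gene (GSVIVT00000343001) went from -1.38 ± 0.30 to -3.60 ± 0.73 and a class I-related gene (GSVIVT00018510001) from 0.98 ± 0.49 to -0.57 ± 0.27 (SD, n = 3). Another DnaJ domain gene (GSVIVT00025539001) rose by 2.43. Chitinases and other pathogenesis-related genes had 4 higher (18.2%) and 2 lower (9.09%) of 22. Among them were chitinase class I (GSVIVT00036222001), lower by 3.32-fold, and a family 17 glucanase (GSVIVT00030570001), higher by 3.45-fold.

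Hormone genes other than those of abscisic acid gave mixed counts, to be set beside 8.55% higher and 5.33% lower over all tested probes. Ethylene and ERF genes had 9 higher and 8 lower of 39, with 27 named from the study's tables, and the largest rise was that of CRF2 (GSVIVT00002468001), a cytokinin response factor, with ratios of 0.66, 1.11 and -0.44 after HC and 3.39, 2.80 and 2.82 after PHC. Its difference was 2.56 ± 0.46 (SE) (adjusted p = 0.00462). With normexp and loess the list had 3 higher and 9 lower. An ethylene-responsive element-binding gene (GSVIVT00032717001) rose by 1.63 and an ethylene-responsive gene (GSVIVT00027475001) by 1.89. Of 22 auxin genes 4 were higher (18.2%) and 2 lower (9.09%). Auxin efflux carrier component 2 (GSVIVT00031315001), which exports the hormone from cells, had ratios of 1.48, 1.23 and 0.38 after HC and 2.80, 2.59 and 3.56 after PHC, a difference of 1.95 ± 0.33 (SE) (adjusted p = 0.00364). Auxin-responsive genes GSVIVT00014456001, GSVIVT00010822001 and GSVIVT00035985001 rose by 1.65, 1.62 and 1.51. A gibberellin-responsive gene (GSVIVT00016335001) rose by 1.60, from 0.43 ± 0.08 to 2.03 ± 0.31 (SD, n = 3), as 1 of 3 genes of its list. Cytokinin genes had 1 of 5 higher and 0 lower, and all 5 differences were positive, although with normexp and loess 0 of the 5 were called. All 5 were named from the study's tables, so their shared sign is not independent evidence of direction. Of 36 bHLH genes 6 were higher (16.7%) and 2 lower (5.56%), with GSVIVT00004026001 up by 1.79, GSVIVT00026175001 by 1.41 and GSVIVT00015166001 by 1.36.

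Reactive oxygen and nitrogen genes were taken as the 12 genes that the study followed by qRT-PCR. Primer pairs that the study designed for 4 of them are shown because they mark the transcripts on which the largest called differences of this set turn; they were not used on the arrays. Each is written 5′ to 3′, and no base is capitalised.
VvRBOHE forward: attatagccgcacgtacgatttc
VvRBOHE reverse: ctcccccgacggcatagt
VvFSD3 forward: tgccccaagctccaaaatc
VvFSD3 reverse: tgaagctttttgtgatccatgaa
VvFSD forward: gctcaagcctcctccatatcc
VvFSD reverse: ccaacgtctcacggctcat
VvAOX2 forward: gacgggctcggaaaatgg
VvAOX2 reverse: ggcacgccccagtagct

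VvRBOHE (GSVIVT00016386001), an NADPH oxidase that makes superoxide at the plasma membrane, was above the control on every HC array, at 0.69, 0.86 and 1.31, and below it on every PHC array, at -1.57, -0.91 and -1.18. The difference was -2.17 ± 0.30 (SE) (adjusted p = 0.00184), and the gene was at -0.24, 0.78 and 0.38 after P. The other NADPH oxidase, VvRBOHA (GSVIVT00002525001), was below the control in both treatments, with means of -1.53 and -1.96, and the difference of -0.43 did not pass (adjusted p = 0.243). Iron superoxide dismutases, which turn superoxide into hydrogen peroxide in plastids, were both higher in PHC. VvFSD3 (GSVIVT00007083001) had ratios of 0.18, 0.33 and -0.01 after HC and 1.91, 1.61 and 1.95 after PHC, a difference of 1.65 ± 0.19 (SE) (adjusted p = 0.00127). VvFSD (GSVIVT00014163001) had 0.76, 0.20 and 0.03 and 1.79, 1.27 and 1.73, a difference of 1.27 ± 0.24 (SE) (adjusted p = 0.00593). Neither pair of groups overlapped. The study reports VvFSD as lowered after PHC on these arrays, with about the size of the ratios found here but the opposite sign. Its qRT-PCR series describes a rapid early rise of VvFSD after PHC that later declined. The reason for the difference in sign was not tested. A type 2 peroxiredoxin (GSVIVT00021685001), a peroxide-reducing enzyme of the antioxidant list, rose as well, from -0.42 ± 0.11 to 1.27 ± 0.49 (SD, n = 3).

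VvAOX2 (GSVIVT00003173001), the mitochondrial alternative oxidase that bypasses cyanide-sensitive respiration, had ratios of 1.73, 2.98 and 2.58 after HC and 0.75, 1.09 and 1.38 after PHC, a difference of -1.36 ± 0.32 (SE) (adjusted p = 0.015). It remained above the control on all 6 arrays, and without PHC replicate 1 the difference was -1.20 (adjusted p = 0.0545). VvDOX1 (GSVIVT00020782001), an alpha-dioxygenase of fatty acids, and VvHB2 (GSVIVT00036443001), a hemoglobin that can scavenge nitric oxide, were also less high after PHC, with 1.77, 3.05 and 3.64 against -0.03, 0.17 and 0.55 and 3.73, 4.71 and 4.79 against 2.21, 3.50 and 3.52. Their differences of -2.59 and -1.33 missed the threshold (adjusted p = 0.0589 and 0.0723), although the arrays did not overlap; VvDOX1 passed without P replicate 1 and VvHB2 without HC replicate 1.

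Of the hydrogen peroxide-removing enzymes of the set, 0 of 5 were called. VvCAT1 (GSVIVT00004080001), a catalase, was below the control on all 6 arrays, with -1.54, -1.53 and -1.48 after HC and -1.30, -1.81 and -1.61 after PHC and a difference of -0.06 (adjusted p = 0.848) whose sign was positive with median centring (0.27) and with arrays scaled to one spread (0.25). VvAPX3 (GSVIVT00036747001), a cytosolic ascorbate peroxidase, differed by -0.70 (adjusted p = 0.037) and VvPOD12 (GSVIVT00031723001) by -0.97 (adjusted p = 0.0144), both under 2-fold and without overlap of the arrays. VvPOD12 was past 2-fold without HC replicate 1 (-1.21) or PHC replicate 2 (-1.09). VvGPX2 (GSVIVT00001920001), a glutathione peroxidase, and VvPOD72 (GSVIVT00031598001) differed by 0.82 and 2.25 and did not pass (adjusted p = 0.295 and 0.121); VvPOD72 read 2.64, 3.81 and -0.18 after HC, so HC replicate 3 stood apart from the other two. Over the 12 antioxidant genes 3 were higher and 2 lower, with a median difference of 0.03, and 10 of the 12 were named from the study's tables. A glutathione S-transferase (GSVIVT00023538001), 1 of 3, rose by 1.71, lost without PHC replicate 1 (1.52) or PHC replicate 3 (1.68).

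**Figure D5:**
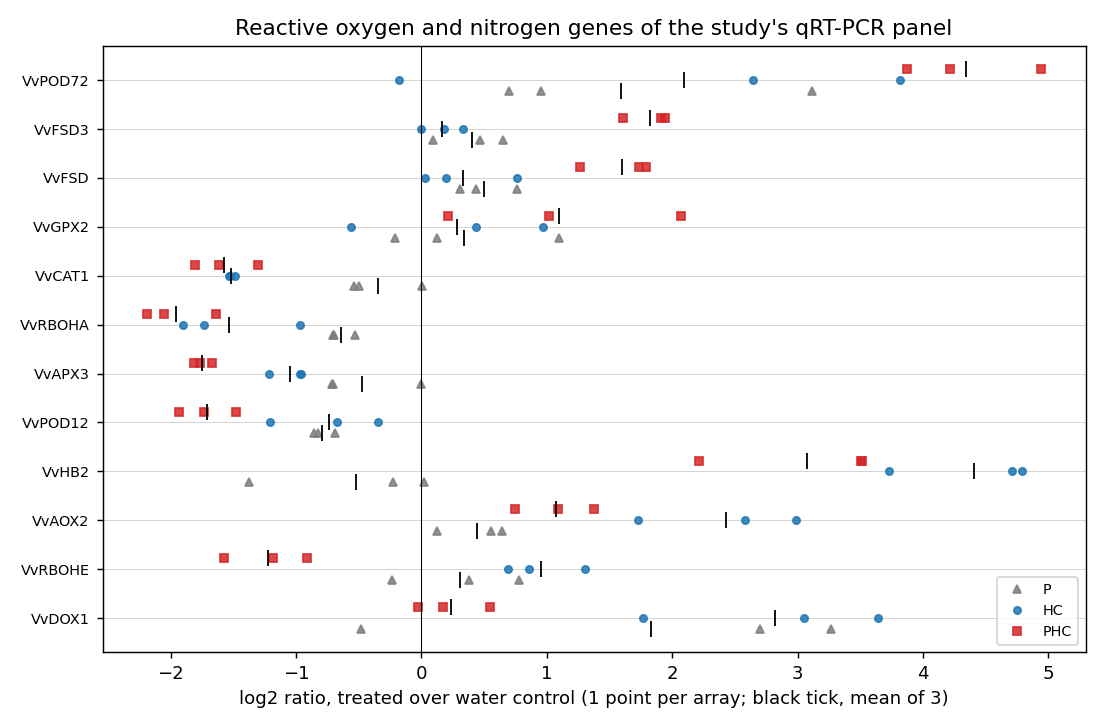
Log2 ratio of treated over water control on each array after P (grey triangles), HC (blue circles) and PHC (red squares) for the 12 reactive oxygen and nitrogen genes, ordered by PHC minus HC difference, with black ticks at the means of 3 arrays. VvFSD3 and VvFSD sit higher in PHC, VvRBOHE crosses from above to below the control, and VvCAT1 is below the control in both.

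Glycolysis and sugar genes were called about as often as all tested probes, of which 8.55% were higher and 5.33% lower. Of 22 glycolysis genes 2 were higher (9.09%) and 1 lower (4.55%), the fall being that of a pyruvate kinase family gene (GSVIVT00006511001), the last step of glycolysis, from 0.16, -0.10 and 0.33 after HC to -1.29, -1.09 and -1.48 after PHC, a difference of -1.42 ± 0.17 (SE) (adjusted p = 0.00134). Of 9 hypoxia and fermentation genes 3 were higher and 0 lower, but the list's median difference was -0.01 and 4 of its 9 differences were positive. Sucrose synthase (GSVIVT00016378001), which splits sucrose, went from 1.74 ± 0.20 to 3.24 ± 0.16 (SD, n = 3). A putative alcohol dehydrogenase (GSVIVT00013864001) rose by 1.09 and an allyl alcohol dehydrogenase (GSVIVT00004110001) by 1.05. The calls of the dehydrogenases were lost without PHC replicate 3 (0.99 and 0.95), and that of the putative alcohol dehydrogenase also without HC replicate 3 (0.95). Of 26 sugar genes 2 were higher (7.69%) and 1 lower (3.85%), and of 10 genes of cyanide and nitrile metabolism 1 was higher and 0 lower, a rhodanese-like domain gene (GSVIVT00022284001), of the sulfurtransferases that can detoxify cyanide, by 1.25. Photosynthesis genes had 6 higher and 1 lower of 19, but 4 of the 6 were plastocyanin-like domain genes, blue copper proteins that are mostly secreted rather than photosynthetic, such as GSVIVT00000537001, GSVIVT00021025001 and GSVIVT00032783001 with rises of 1.88, 1.55 and 1.25. Cuticle and lipid transfer genes had 2 higher and 0 lower of 12, both of them proline-rich proteins already counted among the wall genes.

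Further families were picked out only after the values had been seen and are given as counts, beside 8.55% higher and 5.33% lower over all tested probes. Leucine-rich repeat genes, many of them receptor kinases, had 27 higher (28.4%) and 4 lower (4.21%) of 95 and a median difference of 0.48. Receptor kinase-like genes GSVIVT00023925001 and GSVIVT00001030001 were up by 2.87 and 2.85. Pentatricopeptide repeat genes, whose proteins process organellar RNA, had 38 higher (13.1%) and 2 lower (0.692%) of 289 and a median difference of 0.39. An example is GSVIVT00023090001, from 0.45, 0.74 and -0.70 after HC to 2.95, 2.17 and 2.38 after PHC. The number of pentatricopeptide repeat genes higher was 9 with normexp and loess and between 23 and 63 when single arrays were left out. Organellar ribosomal proteins had 0 higher and 1 lower of 13, a 30S ribosomal protein gene (GSVIVT00037171001) with a difference of -1.89, although 11 of the 13 differences were positive. Serine carboxypeptidases had 3 of 5 higher, with GSVIVT00023266001 up from 1.84 ± 0.44 to 4.76 ± 0.43 and GSVIVT00005095001 from -0.64 ± 0.25 to 1.29 ± 0.31 (SD, n = 3). Ubiquitin ligase genes had 20 lower (10.4%) and 9 higher (4.66%) of 193 and a median difference of -0.30, which was 0.09 with median centring. RING finger gene GSVIVT00024112001 went from 1.09, 1.18 and 1.83 to -0.73, -0.08 and -0.61, whereas GSVIVT00026900001 rose by 1.93.

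Whether pruning changed a transcript by the same amount with and without the chemical was tested as the difference between PHC minus HC and the ratio after P alone. This difference passed for 406 probes in the positive and 401 in the negative direction, 3.06% of those tested, and a dye effect does not cancel in it. For VvRBOHE the HC to PHC difference was -2.17 and the mean ratio after P was 0.30, so the test value was -2.48 (adjusted p = 0.026). For the O-methyltransferase gene it was 3.37 (adjusted p = 0.032), whose mean after P was 0.01. The counts were 0 positive and 0 negative without HC replicate 1, PHC replicate 1, P replicate 2 or P replicate 3, and 0 and 1 without PHC replicate 3. They were 28 and 63 without P replicate 1, 302 and 341 without HC replicate 3, 344 and 347 without PHC replicate 2, and 920 and 717 without HC replicate 2. The counts therefore depend on single arrays.

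The SD of the log2 ratios of a single array was 0.86 ± 0.09 (SD, n = 3) after HC and 1.04 ± 0.07 (SD, n = 3) after PHC. The difference of 0.18 had p = 0.2 in a two-sided exact permutation test over 20 regroupings, in which the smallest p possible was 0.1. Between 22.9 and 30.1% of tested probes were past 2-fold on a PHC array and between 13.0 and 22.7% on an HC array, so the highest HC array came close to the lowest PHC array.

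Probes near the 2-fold limit show how fine the line was. Just inside it among named genes past the adjusted p threshold were a proton ATPase subunit C gene (GSVIVT00035666001) at 1.0006, a cytochrome c oxidase gene (GSVIVT00034556001) at 1.001 and a maoC-like dehydratase gene (GSVIVT00024484001) at 1.0044. Just outside were an aspartyl protease gene (GSVIVT00032938001) at 0.9998, a Gar1 RNA-binding gene (GSVIVT00025475001) at 0.9978 and a cyclophilin-type isomerase gene (GSVIVT00006984001) at 0.9969. On the lower side, a beige-related WD-40 gene (GSVIVT00015086001) at -1.0045, a DJ-1 family gene (GSVIVT00027798001) at -1.0069 and a CCCH zinc finger gene (GSVIVT00015456001) at -1.009 were counted, and a ribosome constituent (GSVIVT00020986001) at -0.9993, a lipid-binding glycoprotein gene (GSVIVT00025982001) at -0.9987 and a yippee family gene (GSVIVT00027729001) at -0.9975 were not.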

How the data were processed

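Buds of 3 treatments were measured on 9 two-color custom Agilent grapevine arrays, 3 per treatment. Per the file headers and the labels, the authors extracted signals with Agilent Feature Extraction 10.5, which gave linear intensity values per spot and channel, subtracted background and applied rank-consistent LOWESS. The deposited log2 value is Cy5 over Cy3 after these steps and was exactly 0 on 3.17 to 5.90% of the probes of an array. The ratio columns and the p-value that the authors' software gave per spot were not used. The signal columns served the filter and the alternatives. The series table of the deposited log2 values was an alternative.

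Outlier spots were dropped (81 values), and 0 were saturated. The tests kept probes that exceeded background well, in Cy3 or Cy5, on every array of some treatment. One limma (version 3.58.1, R 4.3.3) model held a mean for each treatment over the 9 arrays. Its residual degrees of freedom were 6 and the prior degrees 2.74, and p-values were Benjamini-Hochberg adjusted. The fit was tested on simulated data. Plots were made in Python 3.11.15 (matplotlib 3.10.9). The number of arrays limits the precision, and p-values measure the spread between these samples, which may be technical. On an HC or PHC array 81.3 to 88.0% of probes were well above background in Cy3 and 83.6 to 90.3% in Cy5.

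Names came from the study's additional tables (438 probes) or, failing that, from the Arabidopsis homolog (6981 probes). Gene lists were words matched to those names. Named genes were the 12 qRT-PCR genes, the 15 largest called differences each way and up to 4 called members of each list, 151 in all, most of which are printed. Genes other than the 12 had to show no overlap of the HC and PHC arrays and signals well above background. Members and lists were chosen with earlier results of these data known, and the families given last were added after their values were seen. Alternatives were normexp (offset 50) with loess or median centring, arrays brought to one spread, the authors' series table, Cy5 alone, other filters and thresholds, 6 arrays, a replicate block, array weights and each array left out.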

Additional observations from a re-analysis of the deposited data

Results flagged for a closer look

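For 29 of the 151 named genes the PHC minus HC difference departed from the ratio after P by a limma test of that departure itself (adjusted p under 0.05 and at least 2-fold), against 3.06% of all tested probes. Most of these genes were named for a large PHC minus HC difference, which is a term of the departure, so the count says nothing about them as a group. Without HC replicate 1, PHC replicate 1, P replicate 2 or P replicate 3 the test called 0 probes, so the calls depend on single arrays. Dye effects do not cancel in the departure.

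The departure was positive, PHC exceeding HC by more than P exceeded the control, for the O-methyltransferase of family 2 (3.37), the prephenate dehydrogenase gene (2.50) and the tropomyosin-related gene (2.04). Among genes of division and growth it was 1.73 for the WD-40 mitotic checkpoint gene, 1.26 for the cell division cycle gene and 1.04 for APC10. Peroxidase gene GSVIVT00003644001 gave 1.73, the type 2 peroxiredoxin 1.34 and VvFSD3 1.25. The late embryogenesis abundant domain gene that rose gave 1.75, the serine carboxypeptidase S28 gene 1.60, the plastocyanin-like gene GSVIVT00000537001 1.25 and the MYB gene GSVIVT00023066001 1.19.

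The departure was negative for the other genes, some of them high after HC and less so after PHC. It was -4.39 for the inactive tetrahydrocannabinolic acid synthase-like gene, -4.26 for pectinesterase 2, -2.80 for dirigent protein 22 gene GSVIVT00024744001, -2.75 for stilbene synthase 1-like, -2.48 for stilbene synthase 4-like and -2.60 for the cell wall invertase. VvRBOHE gave -2.48, VvAOX2 -1.80, WRKY40-like -1.67, the SUI1 gene -1.87 and the DnaJ gene GSVIVT00031892001 -1.86. Protein phosphatase 2C genes GSVIVT00024235001 and GSVIVT00009551001 gave -1.81 and -1.01. The chalcone and stilbene synthase family gene gave -1.26, cationic peroxidase 1-like -1.34 and the pyruvate kinase gene -1.12.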

How the results depend on the processing

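Leaving out 1 array at a time gave between 1620 and 2736 probes higher and between 1011 and 1890 lower. Median centring after normexp gave 3470 higher and 423 lower, scaling to one spread 929 and 583, an adjusted p under 0.05 with no fold limit 4082 and 3449, and leaving out both arrays of replicate 3, chosen after seeing the data, 1371 higher. Single arrays moved the departure from P between 0 and 920 positive and between 0 and 717 negative probes; a replicate block gave 701 and 674. The methods describe field blocks, but the labels do not tie replicate numbers to them. Deviations of HC and PHC arrays of 1 number correlated at 0.577, 0.224 and 0.00309, so the numbers were not taken as pairs. Each of the 9 arrays deviated most like one of its own number when P arrays were included, and Cy3 signals of HC and PHC arrays correlated most within a number (0.993, 0.993 and 0.995), a hint from the data that numbers share a source. The replicate block gave 2477 probes higher and 1541 lower.

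Cytosolic ribosomal proteins had 53 members higher with median centring, 2 with one spread, 5 from Cy5 alone, 32 with array weights, 13 without replicate 3 of both treatments, and 16 to 26 with an array left out. Kinesin and microtubule genes had 6 with loess, 5 with one spread, 7 from Cy5 alone, 6 without replicate 3 of both treatments, and 7 to 13 with an array left out. Chaperones of the endoplasmic reticulum had 1 with one spread, 2 without replicate 3 of both treatments, and 3 to 5 with an array left out. Late embryogenesis genes had 3 lower with one spread. WRKY genes had 2 lower with median centring, 3 with one spread, 9 with array weights, 3 without replicate 3 of both treatments, and 4 to 8 with an array left out. Among named genes the sign changed for VvCAT1 alone, to 0.27 with median centring, 0.25 with one spread and between -0.19 and 0.059 with an array left out (0.059 without PHC replicate 2). Of 143 named genes called, 32 lost the call when some array was left out; 67 lost it with one spread, 17 with loess, 20 with median centring and 17 from Cy5 alone. The causes of these changes were not tested. Near background, ratios are compressed or set to 0, which limits dim probes.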
